A study of Mus musculus with 2254 samples.

Results

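Among brain cells with a high level of the smooth muscle actin gene Acta2, 77 carried Pappa2 or Dmp1, and these cells are described here. They were picked from 2254 deposited cells by single-cell read counts, scaled to the cell's total as CPM. A cell was included with a total of at least 50000 counts, Acta2 of at least 1000 CPM, and Pappa2 and Dmp1 together at 50 CPM or more. It also needed the endothelial genes Cldn5 and Pecam1 together under 200 CPM and the ependymal genes Ccdc153 and Tmem212 together under 50 CPM. The comparison cells were the 1136 other cells with Acta2 of at least 1000 CPM and Myh11, the smooth muscle myosin heavy chain, of at least 500 CPM. Of the 77 subset cells, 73 also passed the Myh11 minimum and 4 did not. The level of Pappa2 and Dmp1 therefore defined the subset and is given as a description only.

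The cells came from the brains of adult C57BL/6 mice that carried SM22-Cre and a Rosa26-stop-tdTomato reporter in both groups, labelled KO or WT for Notch3. SM22 is a smooth muscle gene, so the reporter marks cells in which its promoter drives Cre now or did so earlier. Fluorescent cells were sorted into wells and read by Smart-seq2, a method for full-length polyadenylated RNA. The KO cells stood on plates 043, 467 and 471 and the WT cells on plates 044, 468 and 469. No animal is named, so each genotype is 1 sample, and plate and genotype cannot be told apart. No statistical test between groups was made: plates are given one by one, an SD is over plates, and intervals cover counting error only.

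Pappalysin-2, the product of Pappa2, is a secreted metalloproteinase that cuts binding proteins of insulin-like growth factors and so frees the growth factor. Dmp1 encodes an acidic phosphoprotein of the SIBLING family, best known from the matrix of bone and dentin. Inhba encodes the subunit of activin A, a ligand of the TGF-beta family, and Col14a1 encodes a collagen that sits on the surface of collagen fibrils. These genes lie on different chromosomes of mouse build GRCm38: Pappa2 on chr1:158711727-158980490 (minus strand), Dmp1 on chr5:104202613-104214102, Inhba on chr13:16011851-16031621 and Col14a1 on chr15:55307750-55520803 (all plus strand, GENCODE M21).

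The sequences in front of 3 of these genes are shown because the genes were read in overlapping sets of cells from separate loci. They are RefSeq promoter windows of build GRCm38.p6, 250 bases before the start, with bases in GENCODE exons of the gene left out. They cover chr5:104202367-104202612 (plus strand) for Dmp1, chr13:16011601-16011850 (plus strand) for Inhba and chr1:158958368-158958425 (minus strand) for Pappa2. The Pappa2 stretch lies inside the annotated gene span, before an internal exon at which RefSeq places a start. Capitals mark matches on either strand to the E-box CANNTG or the TATA box TATAAA.
Dmp1: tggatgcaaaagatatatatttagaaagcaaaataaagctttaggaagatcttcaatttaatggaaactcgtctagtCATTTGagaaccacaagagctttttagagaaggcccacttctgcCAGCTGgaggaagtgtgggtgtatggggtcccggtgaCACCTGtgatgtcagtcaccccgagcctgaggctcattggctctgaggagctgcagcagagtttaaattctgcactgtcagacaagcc
Inhba: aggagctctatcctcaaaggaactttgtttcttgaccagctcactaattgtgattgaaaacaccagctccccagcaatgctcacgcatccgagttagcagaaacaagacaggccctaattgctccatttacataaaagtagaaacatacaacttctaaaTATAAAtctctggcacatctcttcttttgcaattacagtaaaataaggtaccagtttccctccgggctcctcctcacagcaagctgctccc
Pappa2: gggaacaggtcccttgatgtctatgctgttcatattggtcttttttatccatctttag
The Dmp1 window held 3 E-box matches, and 65.8% of 32851 promoter windows of that length held at least 1. The Inhba window held 1 TATAAA match, against 12.4% of windows. No window held the AP-1 motif TGANTCA, the RBPJ motif TGGGAA or a CArG box, and none of the matches overlapped another.

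Notch3, the deleted gene by label, was read in every plate's subset cells. The KO plates 043, 467 and 471 had 55.5, 101 and 75.1 CPM, whereas WT plates 044, 468 and 469 had 153, 961 and 995 CPM. The comparison cells had 67.7, 106 and 119 CPM under the KO label, and 203, 672 and 1152 CPM under the WT label. The KO plates were below the WT plates in both kinds of cell, but plate 044 lay closer to the KO plates than to the other WT plates. Plate 044 held 23 of the 35 WT subset cells, so each WT value that rests on it concerns the plate labelled WT. Over the plates with at least 10 subset cells, the KO minus WT difference in Notch3 was -1.02 on the log2(CPM + 1) scale in the subset and -1.09 in comparison cells of the same plates.

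Acta2 was part of the rule, so the label smooth muscle was set against the other markers. Tagln, Myh11 and Mylk were read in 77 of 77 subset cells, Des and Lmod1 in 94.8% and Myocd, the smooth muscle coactivator, in 68.8%. In comparison cells Des, Lmod1 and Myocd were read in 99.0, 97.9 and 59.6%. Cnn1, the remaining marker of the list, was read in only 41.6% of subset cells and 51.8% of comparison cells. The summed level of the 7 smooth muscle markers other than Acta2 was 5496 to 11248 CPM over plates in the subset and 8197 to 12086 CPM in the comparison cells, which were chosen on Myh11 as well. None of the 77 cells had 3 or more markers at 50 CPM from the endothelial, fibroblast, astrocyte, oligodendrocyte, microglia, ependymal, neuron, choroid plexus or erythrocyte lists. In the comparison cells, to which the endothelial limit was not applied, 0 to 38 of 1136 cells passed that count for each list, with 38 for endothelial markers. With the rule's own genes Cldn5, Pecam1, Ccdc153 and Tmem212 left out of their lists, the count was still 0 of 77 subset cells for both, against 31 and 0 of 1136 comparison cells. Summed fibroblast markers were 171 to 363 CPM in the subset, with Ccl11 at 0, and 215 to 329 CPM in comparison cells, and summed astrocyte markers were 0.83 to 46.6 CPM and 29.1 to 77.6 CPM. Pericyte markers passed that count in 58 of 77 subset cells and 840 of 1136 comparison cells, and Rgs5 was read in 94.8% and 96.0%. Median depth was 313631 counts and 4525 genes in subset cells, against 289367 counts and 4231 genes.

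Pappa2 and Dmp1 marked mostly different cells. At 50 CPM or more, 23 cells had Pappa2 without Dmp1, 41 had Dmp1 without Pappa2, and 13 had both. The rule set a minimum for the sum of these genes, so their levels are a description. Among subset cells with a read the median was 576 CPM for Pappa2 and 346 CPM for Dmp1. The highest cells had 5911 CPM of Pappa2 and 2599 CPM of Dmp1. Of the 77 cells, 18 had a sum of 50 to 200 CPM. The last cells inside the limit had 50.7, 52.4 and 67.3 CPM of the sum, and the next cells outside it 49.3, 44.5 and 37.9 CPM. The lowest Acta2 value inside was 2755 CPM, and the nearest outside was 722 CPM. A rule on the sum of 2 genes by itself favours cells with 1 of them, so the rank correlation of -0.38 between Pappa2 and Dmp1 over the 77 cells is a description.

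**Figure D1:**
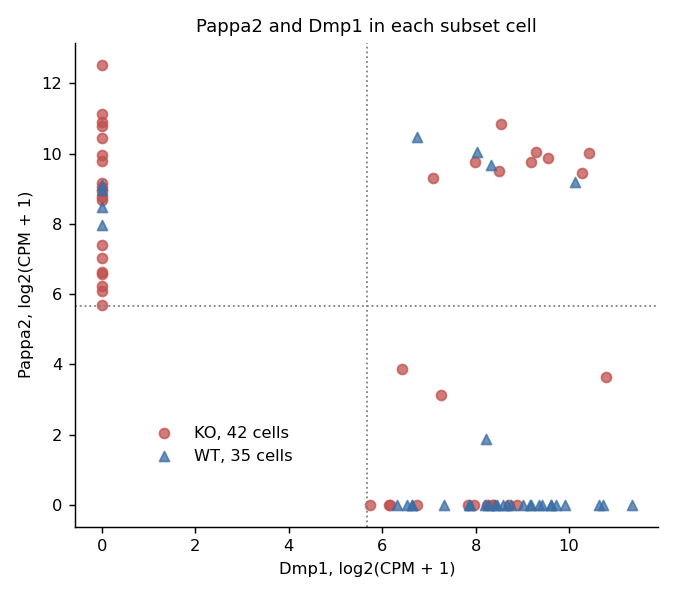
Each point is 1 of the 77 subset cells, with Dmp1 on the x axis and Pappa2 on the y axis, both as log2(CPM + 1), and dotted lines at 50 CPM. The 23 cells with Pappa2 alone line the left side, the 41 with Dmp1 alone the bottom, and 13 cells lie in the upper right.

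The balance between the genes differed between the labels. Pappa2 of at least 50 CPM was found in 28 of 42 KO subset cells (66.7%, exact 95% interval 50.5 to 80.4) and in 8 of 35 WT subset cells (22.9%, 10.4 to 40.1). By plate, it was 7 of 13, 6 of 10 and 15 of 19 cells on the KO plates, and 6 of 23, 2 of 4 and 0 of 8 cells on WT plates 044, 468 and 469. Dmp1 of at least 50 CPM was found in 23 of 42 KO cells (54.8%) and 31 of 35 WT cells (88.6%). By plate, Dmp1 was at 61.5, 60 and 47.4% on KO plates 043, 467 and 471 and at 91.3, 50 and 100% on WT plates 044, 468 and 469, which overlapped through plate 468. The Pappa2 shares on the KO plates all lay above those on the WT plates, with the nearest values 53.8% on plate 043 and 50% of only 4 cells on plate 468.

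Subset cells made up 4.94, 4.46 and 6.51% of the smooth muscle cells on KO plates 043, 467 and 471. On WT plates 044, 468 and 469 they made up 6.69, 12.5 and 13.8%. The means were 5.30% ± 1.07 (SD, 3 plates) for KO and 11.0% ± 3.79 (SD, 3 plates) for WT. No KO plate reached a WT plate, yet the gap between plates 471 and 044 was smaller than their intervals of 3.96 to 9.97% and 4.29 to 9.86%. Plates 468 and 469 held only 32 and 58 smooth muscle cells, which gave intervals of 3.51 to 29.0% and 6.15 to 25.4%. Without plate 044 the WT mean was 13.1%.

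As a share of all cells on the plate the order did not hold. Plates 043, 467 and 471 (KO) had 3.44, 2.70 and 5.03% subset cells, whereas plates 044, 468 and 469 (WT) had 6.07, 1.07 and 2.14%. Smooth muscle cells were 60.5 to 77.2% of the KO plates, 90.8% of plate 044 and 8.56 and 15.5% of plates 468 and 469. The make-up of the cells thus differed between the WT plates, and its cause was not tested. Among smooth muscle cells, Dmp1 carriers were 3.04, 2.68 and 3.08% on the KO plates and 6.10, 6.25 and 13.8% on the WT plates. These point values did not overlap, but the 6.25% of plate 468 was 2 of 32 cells (0.77 to 20.8%). The intervals of plates 471 (1.42 to 5.77%) and 044 (3.82 to 9.18%) overlapped. Pappa2 carriers were 2.66, 2.68 and 5.14% on the KO plates and 1.74, 6.25 and 0% on the WT plates, which overlapped. The 0 of 58 cells on plate 469 allows a share of up to 5.17% by a limit of 3 cells, and its exact 95% interval reaches 6.16%.

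**Figure D2:**
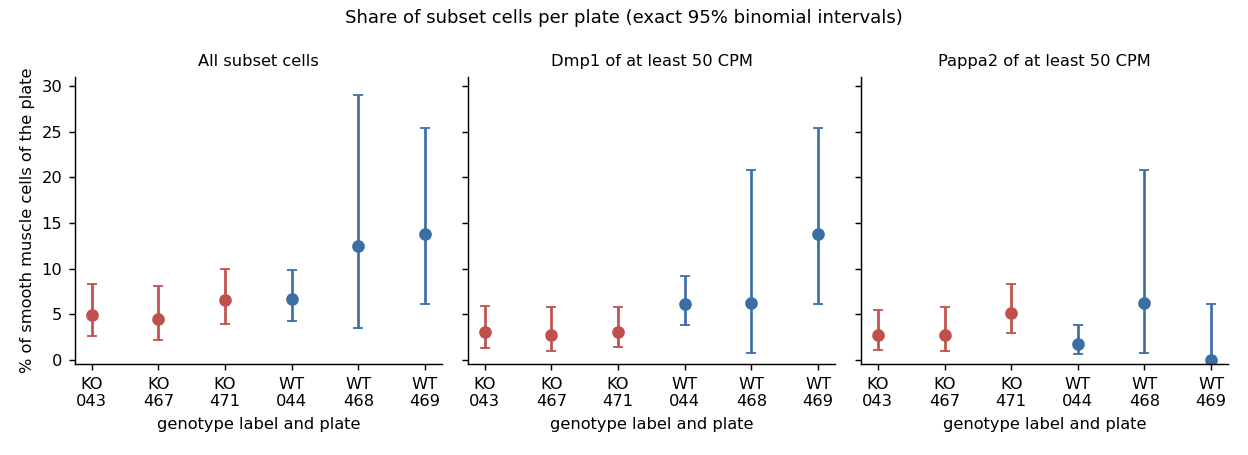
Points are the share of each plate's smooth muscle cells, in percent, that were subset cells (left), Dmp1 carriers (middle) or Pappa2 carriers (right), with exact 95% binomial intervals and KO plates in red. All 3 WT plates lie above the KO plates for all subset cells and for Dmp1, and the plates overlap for Pappa2.

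Inhba and Col14a1 were not part of the rule, but both were given as markers of this subset before the comparison. Earlier results of these data were known then, so their shares are a description only. At least 1 Inhba read was found in 34 of 77 subset cells (44.2%, 32.8 to 55.9) and in 13.9% of comparison cells. With every cell thinned to 50000 counts the shares were 40.3% and 11.1%. Col14a1 was read in 47 of 77 subset cells (61.0%, 49.2 to 72.0) against 23.1%, or 55.8% against 19.2% after thinning. In 25 of 77 subset cells (32.5%) both genes were read, against 3.79% of comparison cells, while 21 of 77 (27.3%) had neither.

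The share of cells with a marker read was also taken by the summed level of Pappa2 and Dmp1. Below the 50 CPM limit, and with the endothelial and ependymal limits applied to all cells, Inhba was read in 12.9% of 900 cells with no read of Pappa2 or Dmp1. It was read in 15.9% of 157 cells below 10 CPM of the sum and in 25% of 36 cells from 10 to 50 CPM. Above the limit it was read in 5 of 18 cells up to 200 CPM, 16 of 38 cells up to 1000 CPM and 13 of 21 cells beyond. Col14a1 stayed at 19.1 to 22.9% below the limit and stood at 50, 55.3 and 81.0% above it. Mamdc2, an extracellular matrix proteoglycan, was read in 22.4 to 41.7% below the limit and in 55.6, 68.4 and 66.7% above it.

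**Figure D3:**
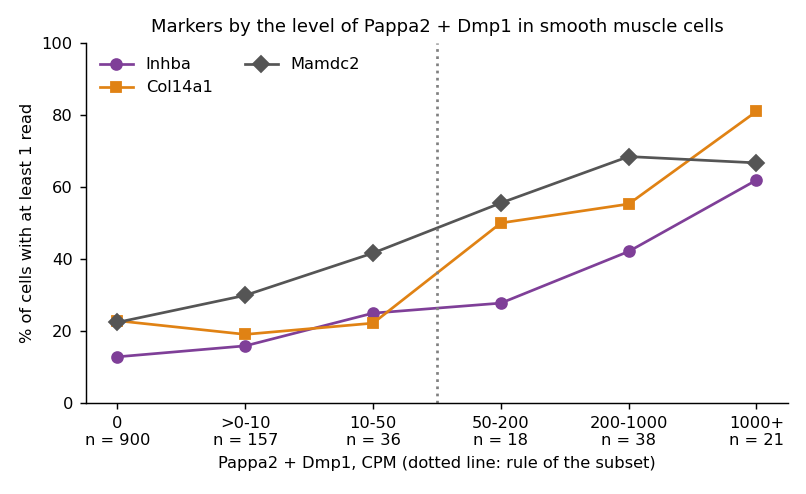
The y axis is the percent of smooth muscle cells with at least 1 read of Inhba, Col14a1 or Mamdc2, and the x axis is the sum of Pappa2 and Dmp1 in CPM, with the number of cells under each step. From cells with no read of either gene to cells of 1000 CPM or more, Inhba goes from 12.9 to 61.9% and Col14a1 from 22.9 to 81.0%.

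By plate, summed Inhba counts gave 184, 112, 61.2, 133, 0 and 102 CPM in subset cells of plates 043, 467, 471, 044, 468 and 469. The comparison cells had 20.4, 18.0, 19.7, 35.6, 101 and 14.1 CPM of Inhba. Inhba was thus higher in the subset on 5 of 6 plates, the exception being plate 468 with its 4 subset cells. Col14a1 stood at 546, 181, 367, 91.6, 117 and 38.6 CPM in subset cells and 56.9, 60.1, 92.1, 37.7, 107 and 25.1 CPM in comparison cells. It was higher on 6 of 6 plates, by little on plates 468 and 469.

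Across all genes, subset and comparison cells were set side by side within each plate that had at least 10 of both, which were plates 043, 467, 471 and 044. A gene was called when its mean log2(CPM + 1) difference was at least 1 either way, that is 2-fold, with the same sign on all 4 plates. It also needed a mean of 10 CPM and a read in 10% of cells on 1 side or the other. Of 9836 genes considered, 141 were higher in the subset (1.43%) and 678 were lower (6.89%), and the median of all genes was -0.24. Each plate set 10 to 23 subset cells against 214 to 321 comparison cells, and genes called lower were read in a median of 21.2% of comparison cells. How far the unequal cell numbers add to the lower calls was not tested. Among the 2893 genes read in at least 50% of cells the counts were 31 higher (1.07%) and 49 lower (1.69%) with a median of -0.04. Adding plate 469, with 8 subset cells, as the fifth plate left 52 genes higher and 448 lower, of which 46 and 390 were also called on 4 plates.

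Apart from Pappa2 and Dmp1 themselves, the genes described here among the 14 highest differences were each read in a minority of subset cells. Cd109, whose product binds TGF-beta at the membrane, was higher by 4.73 ± 1.39 (SD, 4 plates) but was read in 13.0% of subset cells, and 1 cell held 33% of its counts. Asic2, an acid-sensing ion channel, was higher by 4.46 ± 0.42 in 15.6% of cells. S100a4, a small calcium-binding protein, was higher by 3.77 ± 0.80, with 33.8% of subset cells and 5.72% of comparison cells carrying a read. The table's entry RP23-326D6.5 showed nearly the same values (3.74), and S100a4 shares exons with another annotated gene, so the authors' counting could have split its reads. Plvap, a protein of endothelial diaphragms, was higher by 3.56 in 14.3% of cells, with 37% of its counts in 1 cell. On plate 468, S100a4 was at 65.4 CPM in subset cells and Cd109, Asic2 and Plvap were at 0, and on plate 469 all 4 genes were at 0.

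Secreted and matrix-related genes were among the rest of the highest 14. Col4a3, a basement membrane collagen chain, was higher by 2.83 ± 1.06, from 127 to 532 CPM on the 4 plates against 23.2 to 29.8 CPM. An antisense transcript overlaps Col4a3 and the strand setting of the counts is not given in the sources used here. Timp1, an inhibitor of metalloproteinases, was higher by 2.85 in 13.0% of cells. Gcnt4, a glycosyltransferase, was higher by 2.87, Pianp by 2.93, Ajap1 by 3.01 and Syt12 by 3.06. Plates 468 and 469 did not all share these directions. Timp1 and Ajap1 were lower in subset than in comparison cells on both plates, Gcnt4, Syt12 and Col4a3 were lower on plate 469, and Pianp was at 0 in both kinds of cell on plate 468. With plate 469 added, Pianp was the only one of these 6 genes still called higher.

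Among widely read genes, singled out after the values were seen, Mamdc2 and Susd5 stood out. Mamdc2 had 387, 290, 314, 402, 770 and 337 CPM in subset cells of plates 043, 467, 471, 044, 468 and 469, and 57.2, 54.3, 47.2, 185, 89.3 and 155 CPM in comparison cells. Susd5 had 1197, 606, 879, 1207, 1223 and 657 CPM in subset cells, and 330, 207, 242, 531, 469 and 273 CPM in comparison cells. Both were higher in the subset on 6 of 6 plates, by 2.24 ± 0.77 for Mamdc2 and 1.61 ± 0.32 for Susd5 (SD, 4 plates). Ppic, a cyclophilin, was higher by 1.58 ± 0.34, Ltbp4, a latent TGF-beta binding protein, by 1.32 ± 0.39, and Gne, an enzyme of sialic acid synthesis, by 1.28 ± 0.50, each on 6 of 6 plates. Pdgfc, a platelet-derived growth factor, was higher by 1.75 ± 0.73 on 5 of 6 plates and stood at 3.30 CPM in subset cells of plate 469.

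**Figure D4:**
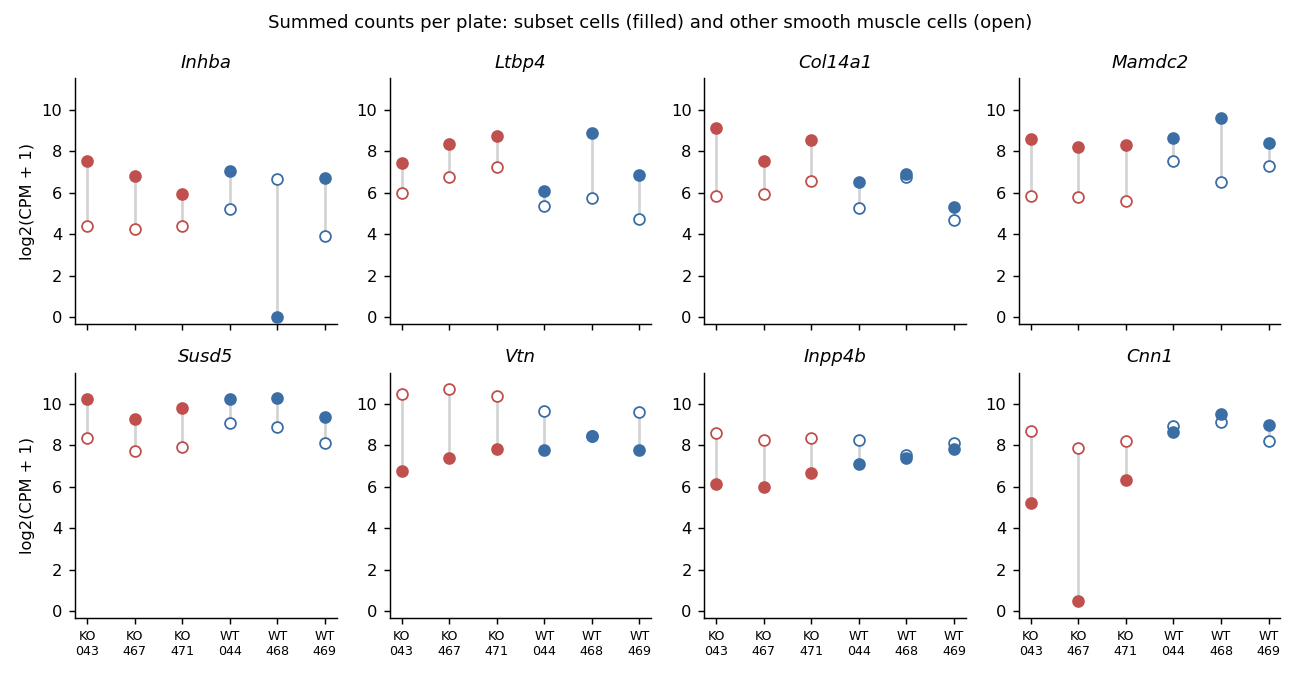
For 8 genes, each plate's summed level in log2(CPM + 1) is shown for subset cells (filled) and comparison cells (open), KO plates in red and WT plates in blue. Ltbp4, Col14a1, Mamdc2 and Susd5 lie higher in the subset on 6 of 6 plates and Inhba on 5, Vtn and Inpp4b lie lower on 6, and Cnn1 lies lower on the KO plates and on plate 044 only.

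Part of the lower side follows from the rule, because cells with endothelial genes were removed from the subset but not from the comparison. Cldn5 and Pecam1 themselves had log2 differences of -3.55 and -3.35. After 43 comparison cells with those endothelial or ependymal levels were taken out, a step chosen after the values were seen, the differences were 0.74 and 0.02 on the other side. The counts were then 143 higher and 638 lower genes, of which 138 and 613 were shared with the first comparison. Of the 10 lowest genes, 5 were no longer called: Ptprb, Ly6a, Ly6c1, Adgrf5 and Slco1a4, genes of brain endothelium, and Ly6e went from -5.06 to -2.05. Ly6a, Ly6c1, Adgrf5 and Slco1a4 still differed by -2.08, -1.96, -2.62 and -1.04, but their mean levels of 5.35, 3.81, 6.56 and 2.28 CPM in the comparison cells were then under the minimum of 10 CPM, and Ptprb differed by -0.71. Summed endothelial markers reached at most 82.1 CPM on any plate in subset cells, 430 CPM in comparison cells and 64.0 CPM after the step.

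Genes that stayed low led with Slc6a20a, a proline transporter. It was at 0, 0, 0 and 0.30 CPM in subset cells of plates 043, 467, 471 and 044, and at 104, 110, 72.2 and 64.5 CPM in comparison cells. Reads of Slc6a20a were found in 2.60% of subset cells and 26.0% of comparison cells. Car4, a membrane carbonic anhydrase, was read in 10.4% against 26.1%, with 12.4, 17.9, 0 and 0.15 CPM against 227, 136, 178 and 106 CPM. Cyp7b1, an oxysterol hydroxylase, was read in 3.90% against 21.4% with a log2 difference of -4.99 ± 1.26 (SD, 4 plates). Atp13a5, a transporter known from pericytes, had a log2 difference of -4.79 on these plates, but stood at 192 CPM on plate 469, where nearly all of its counts were in 1 cell. Slc6a20a overlaps antisense genes, so its reads are uncertain in the same way as those of Col4a3.

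Vtn, which encodes the adhesive glycoprotein vitronectin, was the clearest of the widely read genes on the lower side. It had 108, 168, 229, 217, 344 and 219 CPM in subset cells of plates 043, 467, 471, 044, 468 and 469, and 1396, 1678, 1303, 805, 350 and 772 CPM in comparison cells. Vtn was lower on 6 of 6 plates, with a log2 difference of -2.84 ± 0.81 (SD, 4 plates), and the groups did not overlap, though they were close on plate 468. Inpp4b, a lipid phosphatase, differed by -1.88 ± 0.59 and A4galt, a glycosyltransferase, by -2.38 ± 1.06, both lower on 6 of 6 plates. Apoe differed by -2.24 ± 1.67, and Fhl1, a LIM-domain protein of muscle, by -3.29 ± 2.64, each lower on 5 of 6 plates.

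Both kinds of cell were chosen on Acta2, and the comparison cells on Myh11 too, so the levels of contractile genes are a description. Of 25 contractile genes, 0 were called higher and 2 lower, Actg2 and Cnn1, against 1.43% and 6.89% of all genes, a share near the background. The list's median difference was -0.30, near the -0.24 of all genes, and 22 of the 25 were below 0. Acta2 differed by -0.18 ± 0.06, Tagln by -0.18 ± 0.15 and Myh11 by -0.57 ± 0.30 (SD, 4 plates). Cnn1, the actin-binding protein calponin, had 36.8, 0.42 and 78.5 CPM in subset cells of the KO plates against 406, 235 and 299 CPM. On WT plates 044, 468 and 469 it had 398, 733 and 504 CPM against 481, 559 and 299 CPM, so the large Cnn1 gap was seen on KO plates. Of 12 arterial and arteriolar genes 4 were lower (Casq2, Tesc, Actg2 and Cnn1) and 0 higher, with a median of -0.57. On WT plate 044 Actg2 differed by -0.46, Tesc by -1.31 and Casq2 by -1.62. On plate 468 Actg2 was higher in the subset (312 against 120 CPM), while Tesc (0 against 83.7 CPM) and Casq2 (0.76 against 191 CPM) were lower. None of these 3 genes was lower on plate 469, with Actg2 at 64.7 against 59.6 CPM, Tesc at 95.1 against 93.1 CPM and Casq2 at 96.5 against 85.6 CPM.

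For the growth factor axis on which pappalysins act, 9 genes were expressed enough to compare. Of these, 0 were higher and 1 lower, against 1.43% and 6.89% of all genes, with a median of -0.37. Igfbp2 was the lower one, at -1.50 ± 1.66. Igfbp5, a known pappalysin-2 substrate, was read in 5.19% of subset cells and 17.8% of comparison cells. Its summed level was 0, 160, 38.5 and 0 CPM on plates 043, 467, 471 and 044 against 55.6, 44.4, 93.5 and 47.7 CPM, which gave no call. Igfbp4 was read in 68.8% and 68.7% and differed by -0.57 ± 1.68. Of the Dmp1 family and mineralisation list, 5 genes were compared and none was called. Mgp, an inhibitor of calcification, was higher on 6 of 6 plates at 1684, 1286, 1146, 1177, 945 and 530 CPM against 760, 613, 615, 640, 421 and 381 CPM. Its log2 difference of 1.00 ± 0.13 fell just short of the limit.

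In the activin, TGF-beta and BMP list 22 genes were compared, with 2 higher (Inhba and Ltbp4), 1 lower (Inha, the inhibin alpha subunit, at -2.72) and a median of -0.15. Inhba was a given marker of the subset, so its call here is a description. The receptor genes Acvr1b and Acvrl1 differed by -2.50 ± 2.76 and -1.70 ± 2.39 and were not called. Among 20 interstitial matrix genes, Col14a1 and Col12a1 were higher (2.02 and 2.59) and Col3a1, Col5a1, Fbln5 and Ogn were lower. Col14a1 was a given marker, so its call is a description. Col3a1 differed by -2.74 and Fbln5 by -4.37. The list's median was -0.48, where all genes had 1.43% higher and 6.89% lower. Once comparison cells with endothelial or ependymal levels were taken out, Fbln5 differed by -2.17. Its comparison level was then 43.0 CPM on plate 043 and 0.75, 1.30 and 3.33 CPM on plates 467, 471 and 044. On plates 468 and 469 the subset had less Col12a1 than the comparison cells (4.56 against 21.2 CPM and 0 against 0.16 CPM). Col3a1 was higher there, at 179 against 108 CPM and 93.8 against 58.0 CPM. Among 15 basement membrane genes, 12 lay above 0 but none was called higher and Lama2 was lower (-1.01), with a median of 0.22. The list does not hold Col4a3 and Col4a4, both called higher (2.83 and 1.60), of which Col4a4 was named after its values were seen. Lamb2 was at 893, 899, 1143 and 754 CPM on plates 043, 467, 471 and 044 against 520, 668, 787 and 543 CPM, a difference of 0.55 ± 0.16.

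Of 9 vasoactive receptor genes, Calcrl, the receptor subunit for CGRP and adrenomedullin, was higher by 1.13 ± 0.60 and Agtr1b, an angiotensin receptor, was lower, at -3.46. Calcrl was 0 CPM on plate 469 and 202 CPM on plate 468 in subset cells. Of 20 ion channel and calcium handling genes, Trpc6 was higher by 2.44 ± 0.58 and Casq2, Kcnj8 and Kcnma1 were lower. Over all genes the shares were 1.43% higher and 6.89% lower. Trpc6 was read in 13.0% of subset cells and was at 0 CPM in those of plates 468 and 469. Agtr1b was higher in the subset on plate 468 (130 against 21.8 CPM). Kcnma1 and Casq2 were higher on plate 469 (261 against 46.6 CPM and 96.5 against 85.6 CPM), while Kcnj8 stayed lower on both plates. None of 9 Notch pathway genes was called (median 0.03), though Heyl, a Notch target, was higher on 6 of 6 plates by 0.60 ± 0.09. Of 20 transcription factors 1 was called, Foxf2 (-2.31 ± 2.75), and Nr2f2, a factor known from veins, was lower on 6 of 6 plates, at -0.87. None of 20 immediate early genes was called (median 0.05), and Egr2 and Rasd1 differed by 1.46 ± 1.15 and 0.87 ± 0.22. Cells with 50 CPM or more of Rarres1, Myl1 and Angpt4 together, genes of another smooth muscle subset, were 3 of 77 (3.90%, 0.81 to 11.0) in the subset and 128 of 1136 (11.3%, 9.49 to 13.3) among comparison cells.

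Within the subset, 36 cells carried Pappa2 at 50 CPM or more, with or without Dmp1, and 41 carried Dmp1 alone. These groups were of like depth, with medians of 315572 and 312906 counts, but 28 of the 36 and 14 of the 41 were KO cells, so Pappa2 and genotype cannot be told apart fully. Only plates 043 and 044 had at least 5 cells of each. S100a4 had a pooled level of 163 CPM in Pappa2 carriers, 29.2 CPM in cells with Dmp1 alone and 5.41 CPM in comparison cells. Capg, an actin-capping protein, had 295, 70.0 and 42.8 CPM in the same order. Tgfb3 had 187 CPM in Pappa2 carriers against 868 CPM in cells with Dmp1 alone and 531 CPM in comparison cells, and Sh3bgr had 22.8, 124 and 85.5 CPM. A gene was listed only if it differed in the same direction on both plates, so that direction was fixed for these 4 genes. Listing also required a pooled level of 50 CPM and a read in 50% of cells in either group. The 4 genes were picked after their values were seen, among 1294 genes that passed this filter. Of the 1294 genes, 99 were at least 2-fold higher and 92 at least 2-fold lower in Pappa2 carriers.

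Over the 77 cells, Pappa2 had a rank correlation of 0.46 with Col14a1, -0.36 with Cnn1, -0.42 with Myh11 and -0.38 with Notch3. Dmp1 had -0.30 with Col14a1 and 0.02 with Inhba, and Pappa2 had 0.20 with Inhba. The rule on the sum sets Pappa2 against Dmp1, so opposite signs for Col14a1 can follow from the rule. Of the 36 Pappa2 carriers 28 were KO cells, so genotype enters these values too. In comparison cells, where Pappa2 was read in 2.73% and Dmp1 in 15.5%, their correlations with Col14a1 were 0.05 and -0.04. Pappa2 there had 0.01 with Cnn1, -0.02 with Myh11 and -0.04 with Notch3. These are descriptions across cells that share plates and depth. Cnn1 was at 22.0 CPM in Pappa2 carriers and 428 CPM in cells with Dmp1 alone, against 366 CPM in comparison cells, but only 1 of the 2 plates with at least 5 cells of each showed that direction.

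Genotype cut across this division. Col14a1 was read in 25 of 28 KO and 6 of 8 WT Pappa2 carriers. Among cells with Dmp1 alone it was read in 11 of 14 KO cells (78.6%, 49.2 to 95.3) but 5 of 27 WT cells (18.5%, 6.30 to 38.1). By plate this was 6 of 6, 3 of 4 and 2 of 4 cells on KO plates 043, 467 and 471, and 3 of 17, 1 of 2 and 1 of 8 cells on WT plates 044, 468 and 469, so plates 471 and 468 tied at 50%. Cnn1 in these Dmp1 cells was read in 4 of 14 KO and 18 of 27 WT cells, with 2 of 6, 0 of 4 and 2 of 4 cells on the KO plates and 10 of 17, 2 of 2 and 6 of 8 cells on the WT plates. Mamdc2 was read in 7 of 14 KO and 19 of 27 WT cells, and its plates overlapped. All 19 KO subset cells with an Inhba read also had Col14a1, against 6 of 15 such WT subset cells. Those WT counts were 6 of 12 on plate 044 and 0 of 3 on plate 469, and plate 468 had no Inhba cell. Whatever their Inhba, 36 of 42 KO subset cells (85.7%) had a Col14a1 read, while 11 of 35 WT subset cells (31.4%) did. For comparison cells with an Inhba read, the share with Col14a1 was 29.1% under the KO label and 25.3% under the WT label. Whether the genes were linked more closely under either label was not tested. In comparison cells Col14a1 was read in 27.3% of KO and 15.3% of WT cells, Cnn1 in 45.2% and 63.9% and Mamdc2 in 16.0% and 40.1%, so gaps of the same direction were present outside the subset.

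**Figure D5:**
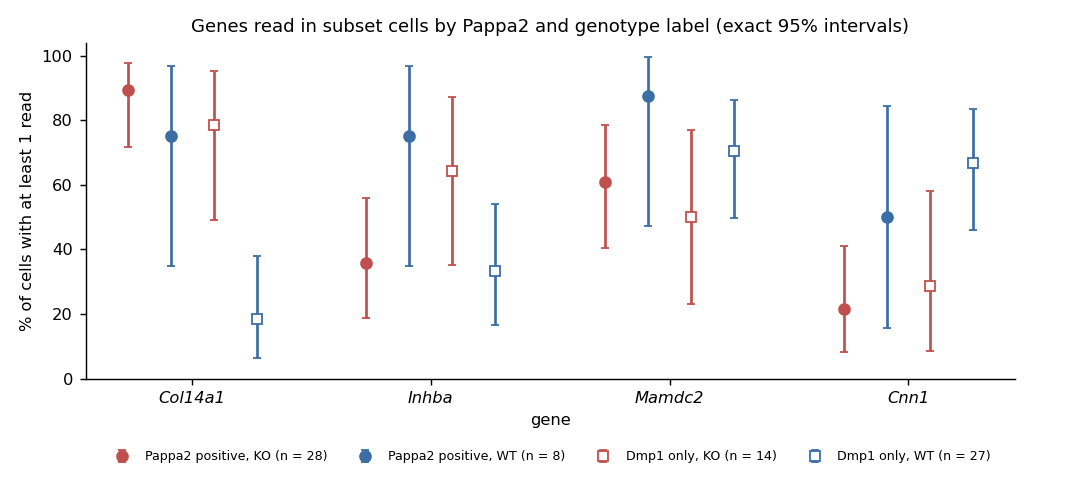
For 4 genes, the percent of subset cells with at least 1 read is shown for Pappa2 carriers (filled circles) and cells with Dmp1 alone (open squares), KO in red and WT in blue, with exact 95% binomial intervals. Among cells with Dmp1 alone, Col14a1 is read in 78.6% of KO and 18.5% of WT cells, pooled over plates that tie at 50% at their nearest.

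Between genotypes across all genes, only plates with at least 10 subset cells were used, which left KO plates 043, 467 and 471 against the single WT plate 044. A gene was called when KO and WT differed at least 2-fold in the mean and the plates did not overlap. Of 9774 genes 1258 were higher (12.9%) and 1403 lower (14.4%) in KO subset cells, counts that rest on 23 cells of 1 WT plate. Col14a1 was higher in KO subset cells by 1.84 ± 0.80 (SD of the 3 KO plates), at 546, 181 and 367 CPM against 91.6 CPM. The same comparison gave 0.83 in comparison cells of the same plates. The differences of 1.16 for Pappa2 and -1.35 for Dmp1 describe the cells the rule let in. Inhba differed by -0.30 and was not called.

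The largest KO values belonged to genes with no or almost no reads on plate 044: Ankrd50, Zfp949, Vps13b, Diap1, Zfp157, Cep89, Zfp667 and Usp40. Ankrd50, an ankyrin repeat protein, was at 140, 123 and 176 CPM in KO and 0 CPM on plate 044, but at 145 CPM on WT plate 469, inside the KO range. Vps13b and Diap1 likewise reached 163 and 136 CPM on plate 469. Cep89, a centrosomal protein, was read in 10 of 42 KO cells and 0 of 35 WT cells, a count of 0 that allows up to 8.57% of cells. The lowest values were those of Nxnl2, Casq2, Srl, Zfp874a, Bcs1l, Zfp39, Phf6 and Cdkl2. Zfp874a, Bcs1l and Zfp39 were at 76.5, 49.8 and 46.7 CPM on plate 044. On WT plates 468 and 469 they were near 0, at 0 and 0, 0.76 and 1.98, and 1.52 and 0.66 CPM. Nxnl2 was at 0 and 30.1 CPM on these 2 plates and Cdkl2 at 28.1 and 0 CPM. Phf6 was at 202 and 31.1 CPM there, above its KO plates.

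Srl and Casq2, both proteins of the sarcoplasmic reticulum, were low on the KO plates. Srl was at 6.91, 0 and 3.64 CPM on KO plates 043, 467 and 471, and at 177, 19.8 and 174 CPM on WT plates 044, 468 and 469. Casq2 was at 0, 0 and 0.30 CPM on the KO plates, and at 63.4, 0.76 and 96.5 CPM on the WT plates. For Srl the KO plates lay below all WT plates, though plate 468 was low. For Casq2 that order rested on 0.76 CPM in the 4 subset cells of plate 468 against 0.30 CPM on plate 471. These are too few reads to separate the 2 plates. In comparison cells of the same plates the KO difference was -1.82 for Srl and -2.84 for Casq2, against -5.74 and -5.88 in the subset. The difference between those differences was not tested. Of 12 arterial and arteriolar genes, 5 were lower in KO subset cells (Casq2, Tesc, Actg2, Cnn1 and Stc2) and 0 higher, against 14.4% and 12.9% of all genes, with a median of -0.84 against -0.15 for all genes. Of 14 basement membrane genes, 5 were higher (Lama5, Hspg2, Agrn, Lama2 and Lama4) and 0 lower, against the same 12.9% and 14.4%, with a median of 0.69.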

How the data were processed

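The authors deposited raw counts of reads per gene symbol and cell for 2254 cells, 1127 of each genotype label, and whether a cell filter was applied before deposit is not given in the sources used here. Per the submitters' processing notes, the tools were TopHat2 2.1.1, SAMtools 0.1.18 and featureCounts from Subread 1.4.6-p5, and the builds GRCm38 and mm10. The authors' annotation version and strand setting are not given in the sources used here. Cell totals ran from 49473 to 763059 counts with a median of 291872, and 2 cells under 50000 counts were left out. No cell columns were identical and 0 columns lacked a sample. Of 30950 entries, 27956 (90.3%) matched GENCODE M21. No doublet caller was run.

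Counts of subset and comparison cells were summed per plate and divided by the summed total to give CPM, and differences were taken on log2(CPM + 1), which understates the change of low genes. Plates needed at least 10 subset cells. No p-value was computed because each genotype is 1 sample. Shares carry exact (Clopper-Pearson) 95% intervals, and a count of 0 was read against a limit of 3 cells. Reads without molecular identifiers are not independent molecules, so intervals and limits cover counting error only. Thinning drew 50000 counts from each cell. Named genes were the rule genes and given markers, Notch3, the 14 largest and 10 smallest differences, up to 4 genes of each list and 8 KO differences each way, of which 1 gene is not reported here. Members, gene lists and alternatives were chosen with earlier results of these data known. The scripts were tested on simulated data. Python 3.11.15, numpy 2.4.6, pandas 2.3.3, scipy 1.17.1, R 4.3.3 and edgeR 4.0.16 (TMM factors, an alternative) were used.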

Additional observations from a re-analysis of the deposited data

Results flagged for a closer look

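Dmp1 was also read outside smooth muscle cells, in cells that the comparisons of subset and smooth muscle cells do not use. Of 128 kept cells with Pappa2 and Dmp1 together at 50 CPM or more, 44 had Acta2 under 1000 CPM, and 38 of those 44 had 3 or more astrocyte markers at 50 CPM. Among the 424 cells with Acta2 under 1000 CPM and 3 or more astrocyte markers, 36 had Dmp1 of at least 50 CPM (8.49%, exact 95% interval 6.02 to 11.6). Among the other 469 cells of low Acta2 it was 1 (0.21%, 0.0054 to 1.18). The Dmp1 astrocyte-marker cells stood on WT plates 468 (12 of 204) and 469 (23 of 143) and on KO plate 471 (1 of 14). The other 3 plates had 0 of 17, 0 of 40 and 0 of 6 such cells. The genotypes were therefore not compared. In the 38 cells the median of Dmp1 was 361 CPM and that of Acta2 5.77 CPM, the median of Myh11 was 0, and Inhba and Col14a1 were read in 1 and 2 cells.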

How the results depend on the processing

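No paired analysis was possible because the labels name no animals and replicate numbers here only name cells. The KO mean share of subset cells, 5.30% of smooth muscle cells, was 4.18% with a Pappa2 and Dmp1 sum of at least 100 CPM, and 4.70 to 5.72% with 1 plate left out. The WT mean, 11.0%, was 9.59 to 13.1% with 1 plate left out and 9.17% at 100 CPM, and was above the KO mean under each setting. The subset held 64 cells at 100 CPM, 92 at 20 CPM and 73 when the rule was applied after thinning, 71 of them the same cells.

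Against the 141 higher and 678 lower genes of subset against comparison cells, 250 were higher at 100 CPM, 227 with 100000 counts per cell, where plate 467 no longer had 10 subset cells, 236 after thinning, 52 (and 448 lower) on plates with at least 5 members, and 31 (and 49 lower) among genes read in 50% of cells. Without a low-value filter 1936 were lower. Leaving out 1 plate gave 223 to 252 higher and 878 to 1115 lower genes, as fewer plates had to share a sign. With TMM factors 108 were higher and 784 lower.

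For KO against WT subset cells (1258 higher, 1403 lower), leaving out 1 KO plate gave 1400 to 1962 higher and 1523 to 1863 lower genes, and leaving out plate 044 left no WT plate. With plate 469 added, 767 were higher and 657 lower, and Notch3 differed by -2.37 in place of -1.02 (-0.81 to -1.23 with 1 plate left out). Among genes read in 50% of cells 287 were higher and 210 lower, and without a filter 2188 were lower. In cells with Dmp1 alone on plates with at least 4 of them, which also brought in plate 469, 395 were higher, Notch3 differed by -2.40, Col14a1 by 1.96 and Zfp157 by -0.38, the reverse of its 5.87 in all subset cells. Calcrl turned to -0.041 with plate 469 added. Cldn5 and Pecam1 turned to 0.74 and 0.016 once the same endothelial limit applied to comparison cells. Of 96 named genes, the difference from comparison cells moved by less than 1 SD in 1488 of 1536 pairs of gene and setting. It moved further in 45 pairs and changed sign in 3. That SD was wide for some genes, such as 3.69 for Igfbp5. For 20 genes compared between KO and WT, 237 of 300 pairs moved by less than 1 SD of the KO plates, 62 moved further and 1 changed sign. The cause of these changes was not tested beyond the number of plates and genes. The settings on endothelial limits, on 50% of cells and on cells with Dmp1 alone were chosen after seeing the data.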
